A study of Saposhnikovia divaricata with 9 samples.

Results

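Leaf transcriptomes of the medicinal umbellifer Saposhnikovia divaricata were compared between the 3 libraries of the group coded L and the 3 libraries of the group coded M. The comparison covered every transcript cluster that reached 1 FPKM (fragments divided by the length of the cluster and by the mapped fragments of the library) or more in at least 3 of these 6 libraries. This rule took 30021 of the 63753 clusters in the deposited table. The series has 9 poly(A) RNA libraries in 3 groups of 3, coded C, M and L. Its design text describes an untreated control, cold at 4 °C for 6 h and cold at 4 °C for 48 h, and gives the plants' age as 48 days. No label ties a code to a condition, so L, M and C are compared as codes and no length of cold is assigned to any of them. The labels give no genotype, ecotype or number of plants per library. It is not stated whether the replicates were separate plants, and every p-value refers to the spread among libraries, which may be technical. The clusters carry identifiers but no gene names or sequences in the table used here, so the leaf label was not checked against marker genes and no function is given to any cluster.

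Plants of cool climates respond to low temperatures above freezing with a broad change of gene expression, known as cold acclimation. In Arabidopsis, ICE1 and related regulators switch on the CBF/DREB transcription factors, which in turn activate genes for dehydrins and other protective proteins, for sugar metabolism and for membrane lipids. Circadian regulators and calcium signalling act on the same network. These genes were not looked up here, since the clusters are unnamed.

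The FPKM values of the M libraries summed to 881012, 880418 and 868503 in replicates 1 to 3, and those of the L libraries to 863749, 932785 and 882576. The number of fragments per library is unknown. Low values move in steps of 1 fragment, and the position of these steps put the depth of L replicates 1, 2 and 3 at 0.986, 1.08 and 0.911 times that of M replicate 3. M replicates 1 and 2 lay at 1 and 0.892 on the same scale. Depth by this reading therefore overlapped between L and M. The step held 133 clusters against 22 in a typical window for L replicate 2 and 391 against 72 for M replicate 1. More clusters were listed above 0 in M, with 50569, 49498 and 51009 in replicates 1 to 3, than in L, with 44249, 42138 and 46046.

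L differed from M over a large part of the leaf transcriptome, and with the FPKM as deposited most differences were reductions, a balance that median scaling turned. Of the 30021 clusters, 2119 were higher in L, or 7.06%, and 8884 were lower, or 29.6% (limma, Benjamini-Hochberg adjusted p below 0.05 and at least 2-fold). Together these 11003 clusters made up 36.7% of those tested, and 19018 were not called. Differences are given on the log2(FPKM + 1) scale, which understates those of clusters with low values. Over all tested clusters the median difference of L from M was -0.58, with quartiles of -1.21 and 0.0608. The 9 pairs of 1 L and 1 M library gave medians from -0.694 to -0.51, so every pair was shifted the same way. This shift is part of each difference below, and the balance of directions depends on how libraries are scaled. Quantile normalization gave 4069 clusters higher and 4159 lower in L, and median scaling, which gives all libraries 1 common median, gave 4929 higher and 4008 lower. Of the clusters called as deposited, 2082 of those higher and 3418 of those lower kept their call under both scalings, and none was called in the opposite direction.

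**Figure D1:**
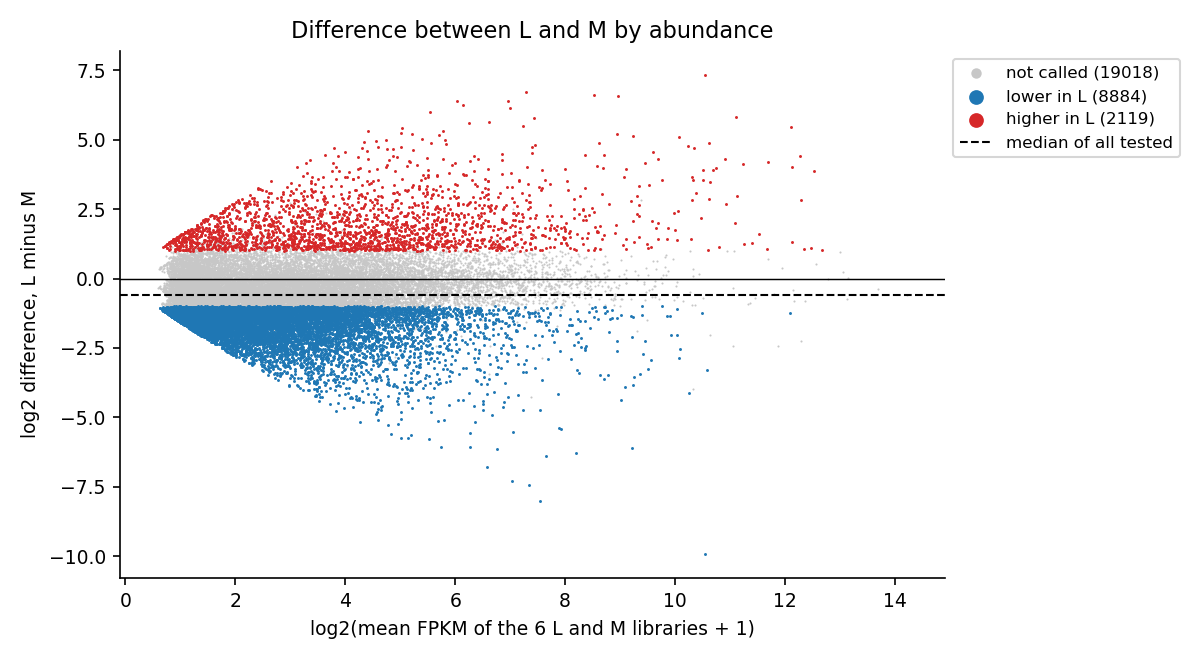
Each point is 1 of the 30021 tested clusters, placed by log2 of its mean FPKM over the 6 L and M libraries plus 1 (horizontal) and by its log2 difference, L minus M (vertical). With the FPKM as deposited, red points are the 2119 clusters called higher in L and blue points the 8884 called lower, and the dashed median of all clusters lies at -0.58, below 0.

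In most called clusters the 2 groups did not overlap, which follows largely from calling them on these same libraries. All 3 L values lay above all 3 M values in 2068 of the 2119 clusters called higher, and all 3 lay below in 8762 of the 8884 called lower. Among all tested clusters, 3759 (12.5%) had every L library above every M library and 14507 (48.3%) had every L library below. Of these, 1691 and 5745 were not called. A cluster that was not called is not shown to be equal in the groups. The 95% interval of the difference lay within 2-fold in either direction for 6750 clusters, or 22.5% of those tested, while 1157 clusters differed by at least 2-fold without passing the test.

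Single libraries show how far the difference between L and M exceeded that between replicates. Replicates of M differed by at least 2-fold in 8.04%, 8.44% and 11.4% of the tested clusters, and replicates of L in 15.8%, 10.6% and 17.2%. The 9 pairs of 1 L and 1 M library differed to that extent in 43.1% to 48.3%. L was the more variable group, with a median SD over replicates of 0.311 on the log2 scale against 0.231 in M, except among clusters of 1000 FPKM or more, where it was 0.252 against 0.272. L replicate 2 took part in both of the wider L pairs. Leaving out any 1 of the 9 libraries gave 1950 to 2251 clusters higher and 8244 to 9189 lower.

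On the log2(FPKM + 1) scale most called differences were of 2-fold to 4-fold, and the largest were spread over both directions. Among the clusters higher in L, 1373 rose by 2-fold to 4-fold, 660 by 4-fold to 16-fold and 86 by 16-fold or more. Among those lower in L, 6584 fell by 2-fold to 4-fold, 2188 by 4-fold to 16-fold and 112 by 16-fold or more. Changes of 16-fold or more made up 4.06% of the rises and 1.26% of the falls. These sizes are bounded for clusters with low values, because 1 is added to each FPKM. Of the 6584 falls of 2-fold to 4-fold, 233 were listed at 0 in every L library. Of the 1373 rises of that size, 65 were listed at 0 in every M library.

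The filter on low values let some clusters in through a single group. In 453 clusters no M library reached 1 FPKM, and 369 of them were called higher in L. In 3110 clusters no L library reached 1 FPKM, and 2472 of them were called lower. Such clusters had to differ, and their calls carry no weight of their own. At the edge of the filter, 5637 clusters reached 1 FPKM in exactly 3 of the 6 libraries, with a median level of 1.28 FPKM, and 8153 clusters left out reached it in exactly 2, with a median level of 0.755 FPKM.

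Clusters called higher lay below those called lower in M and above them in L. Both sets were chosen on L and M, so this order is partly fixed by the choice. The clusters called higher had a median level of 5.48 FPKM in M and 24.9 FPKM in L. Those called lower had a median level of 8.38 FPKM in M and 1.73 FPKM in L, and 3278 of them (36.9%) averaged below 1 FPKM in L. In the other direction, 487 of the clusters called higher (23%) averaged below 1 FPKM in M.

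By mean level over the 6 libraries, 30.6% of the 14199 clusters below 5 FPKM were lower in L and 3.92% were higher. In the class from 20 to 100 FPKM, 23.1% of 4755 clusters were lower and 13.6% higher. From 100 to 1000 FPKM the balance turned, with 246 of 1127 clusters higher (21.8%) and 199 lower (17.7%). Of the 91 clusters at 1000 FPKM or more, 43 were higher in L, 9 were lower and 39 were not called. Median scaling kept this gradient, with 53 higher and 5 lower at 1000 FPKM or more, whereas quantile normalization gave 30 higher and 25 lower there. The L values themselves can lift a cluster into a high class, so the classes are not independent of the difference.

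**Figure D2:**
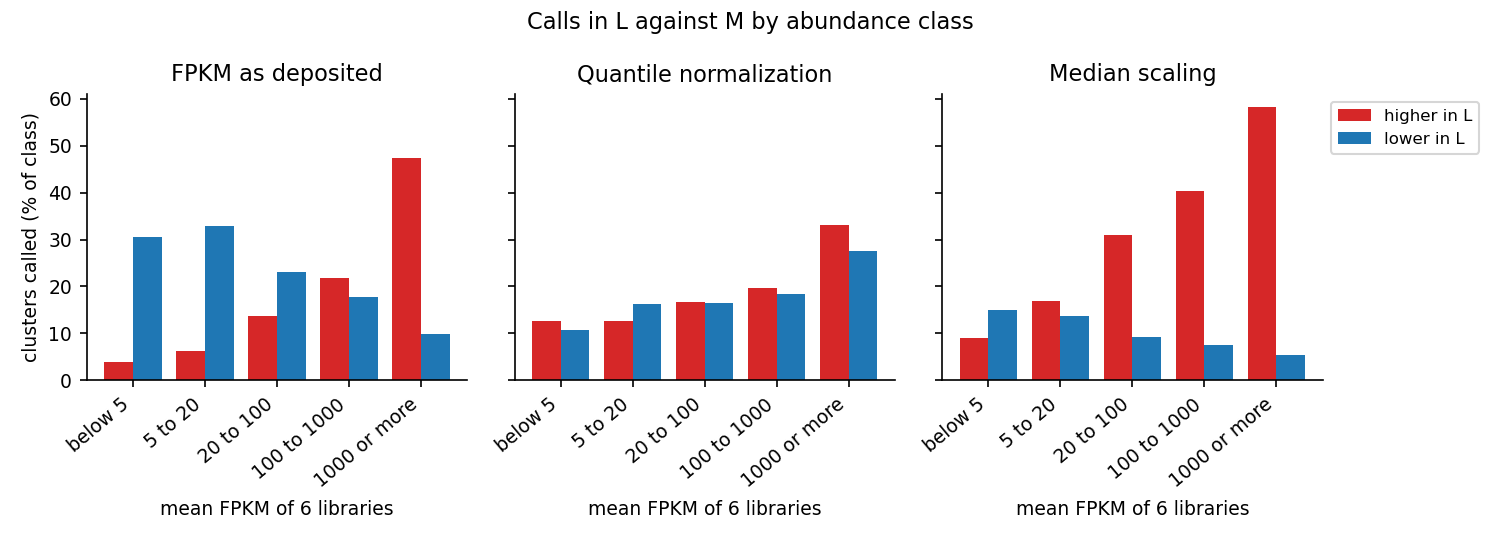
Bars give the percent of tested clusters in each class of mean FPKM that were called higher (red) or lower (blue) in L than in M, starting at 0, with the FPKM as deposited, after quantile normalization and after scaling to the same median. As deposited, the part called higher climbs from 3.92% below 5 FPKM to 47.3% at 1000 FPKM or more, and quantile normalization flattens this to 12.6% and 33%.

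Classes formed from the C libraries, whose level is no part of the difference between L and M, showed falls outnumbering rises at every level with the FPKM as deposited, at 5 FPKM and above with quantile normalization, and at no level with median scaling. This grouping was added after the values by class were seen. Clusters at 5 to 20 FPKM in C had a median difference of L from M of -0.699, those at 20 to 100 FPKM one of -0.656, and those at 100 to 1000 FPKM one of -0.536. The falls and rises in these classes numbered 3633 against 575 of 10545 clusters, 1885 against 270 of 5480 and 343 against 48 of 1119. Falls were 34.5%, 34.4% and 30.7% of these classes and rises 5.45%, 4.93% and 4.29%. These shares lay near those over all tested clusters, 29.6% lower and 7.06% higher. Among the 74 clusters at 1000 FPKM or more in C, 22 were lower and 8 were higher in L than in M, with a median difference of -0.744 that ran from -1.01 to -0.411 over the 9 library pairs. Quantile normalization gave 40 lower and 0 higher among these 74, and median scaling gave 11 lower and 16 higher. Of the 4753 tested clusters below 1 FPKM in C, 645 were higher and 874 lower in L, with a median difference of -0.227. These were only 15.3% of the clusters below 1 FPKM in C, and 53.4% of those at 1 to 5 FPKM were tested, against 97% at 5 to 20 FPKM. Clusters low in C passed the filter through their L and M values, so the balance in the 2 lowest classes is partly set by the filter.

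Expression was concentrated in fewer clusters in L than in M. Counted from the most abundant cluster down, 50% of all FPKM was reached with 356, 237 and 332 clusters in L replicates 1 to 3 and with 724, 735 and 706 in M. Within each library, the top 100 clusters took 36.3%, 40.4% and 37.3% of all FPKM in L and 29.4%, 28.9% and 29.8% in M. Every L library lay above every M library, by 8.67 percentage points on average (exact permutation test, two-sided, p = 0.1, the smallest that 3 against 3 can give, and 0.125 after Benjamini-Hochberg adjustment over 5 such measures). At the very top the L libraries were not separate from the M libraries, and their wider range enclosed that of M. The 10 most abundant clusters took 11.1%, 12.9% and 10.9% in L and 12%, 11.6% and 11.8% in M (exact permutation p = 1).

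**Figure D3:**
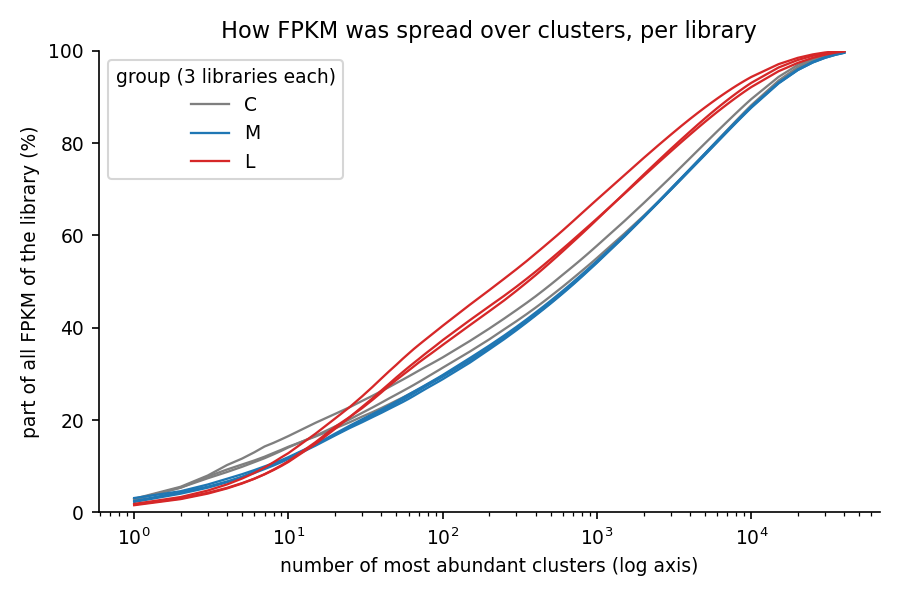
Each line is 1 library (C grey, M blue, L red) and shows the part of its FPKM, in percent, held by its most abundant clusters, against their number on a log axis. The lines of L and M cross near the 10 most abundant clusters and part beyond them, reaching a mean of 38% in L and 29.3% in M at 100 clusters.

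L and M libraries shared fewer of their most abundant clusters with each other than replicates of a group did. Among the 100 most abundant, any 2 L libraries shared 85 to 92 clusters and any 2 M libraries 82 to 89, while an L and an M library shared 40 to 49. Among the 1000 most abundant, the ranges were 821 to 894 within L, 864 to 893 within M and 596 to 641 between L and M. Taken by group mean, the lists of 100 shared 44 clusters. Of the 100 clusters that led in L, 64 were called higher in L, 1 was called lower and 35 were not called. Their median rank in M was 150.5. Of the 100 that led in M, 32 were called lower in L, 13 were called higher and 55 were not called, with a median rank of 116 in L. These lists were taken from the same libraries, so the counts are descriptions.

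With the FPKM as deposited, the increase of the 2119 clusters called higher lay mostly in few of them. The decrease of the 8884 called lower, a larger set, was spread over more. Clusters called higher took 36.9%, 38.5% and 39.2% of all FPKM in the L libraries and 8.18%, 8.84% and 8.18% in the M libraries. Of their summed increase in mean FPKM, the 10 largest increases made up 24.7%, the 100 largest 68.9% and the 1000 largest 96.8%. Clusters called lower took 27.4%, 27% and 27.5% of all FPKM in M and 7.51%, 6.55% and 6.55% in L. Of their summed decrease, the 10 largest made up 10.6%, the 100 largest 33.4% and the 1000 largest 66.2%. Tested clusters that were not called also took less in L, at 54.3%, 53.8% and 52.3%, than in M, at 62.2%, 62% and 62%. The clusters were chosen on these libraries, so the parts describe them and were not tested. FPKM are relative to the library, so a lower FPKM of a cluster and a higher amount of other RNA cannot be told apart.

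The 43 clusters of 1000 FPKM or more that were called higher took 3.77%, 4.3% and 3.63% of all FPKM in M and 18.4%, 20.7% and 20.2% in L. Their median level was 394.8 ± 25.6 FPKM in M and 3189 ± 302 in L (mean of the library medians ± SD, n = 3). In the C libraries it was 94.4 ± 15.6, and the mean in C lay below that in M and L for 39 of the 43. The class was cut on the L and M values and not on C, so the lower place of C is partly fixed by the choice. The 9 clusters of this class called lower stood at a median of 1863 ± 59.5 FPKM in M, 366.1 ± 113 in L and 1591 ± 157 in C. Other abundant clusters had a 95% interval of the difference within 2-fold with the FPKM as deposited. These were 383 of the 1127 clusters at 100 to 1000 FPKM and 7 of the 91 at 1000 FPKM or more. Together they numbered 390, and of all tested clusters 22.5% had such an interval. Their median levels, alike by the choice of clusters, were 169.8 ± 5.87 FPKM in M and 166.8 ± 17.2 in L. Median scaling moved the median difference of the class from 100 to 1000 FPKM from -0.0786 to 0.768.

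The C libraries took no part in choosing the called clusters, apart from their share in the estimate of spread, and show where each set stood in the group outside the comparison. Clusters called higher in L had median levels of 2.91, 3.44 and 3.88 FPKM in the C libraries, 5.03, 5.31 and 5.49 in M and 24.7, 21.8 and 25.6 in L. Every M median lay above every C median in this set, and the distance between M and L was fixed by the choice of clusters. Clusters called lower had medians of 7.3, 9 and 8.39 FPKM in C, 8.27, 8.41 and 8.39 in M and 1.79, 1.47 and 1.75 in L, so that the C and M libraries overlapped. The comparisons of L and of C with M share the M libraries, and these levels were therefore set side by side without a test.

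The sets are also given by size of the difference, which is cut on the M and L values themselves, so that the place of M beside C in a set is partly fixed by the cut. The 86 clusters that rose by 16-fold or more had median levels of 0.36, 0.39 and 0.59 FPKM in C, 2.01, 3.17 and 2.72 in M and 105.8, 112 and 112.6 in L. In 73 of them the mean in C lay below that in M, in 15 all C libraries were listed at 0, and in 4 all M libraries were. Together they took 8.03%, 9% and 8.56% of all FPKM in L. Among the smaller rises, the mean in C lay below both M and L in 466 of the 660 of 4-fold to 16-fold. For rises of 2-fold to 4-fold this held in 881 of 1373. The 112 clusters that fell by 16-fold or more had medians of 19.2, 37 and 41.7 FPKM in C, 64.2, 61.8 and 52 in M and 0.98, 1.39 and 0.9 in L. The mean in C lay between those of L and M in 75 of the 112, above both in 34 and below both in 3. The smaller falls stood otherwise. Of the 6584 falls of 2-fold to 4-fold, the mean in C lay above both in 3580, between in 2583 and below both in 421. Of the 2188 of 4-fold to 16-fold it lay above both in 938, between in 1160 and below both in 90. In the 2188 clusters that fell by 4-fold to 16-fold the medians of C, at 10.2, 13.9 and 12.4 FPKM, overlapped those of M, at 13.8, 14 and 13.3.

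**Figure D4:**
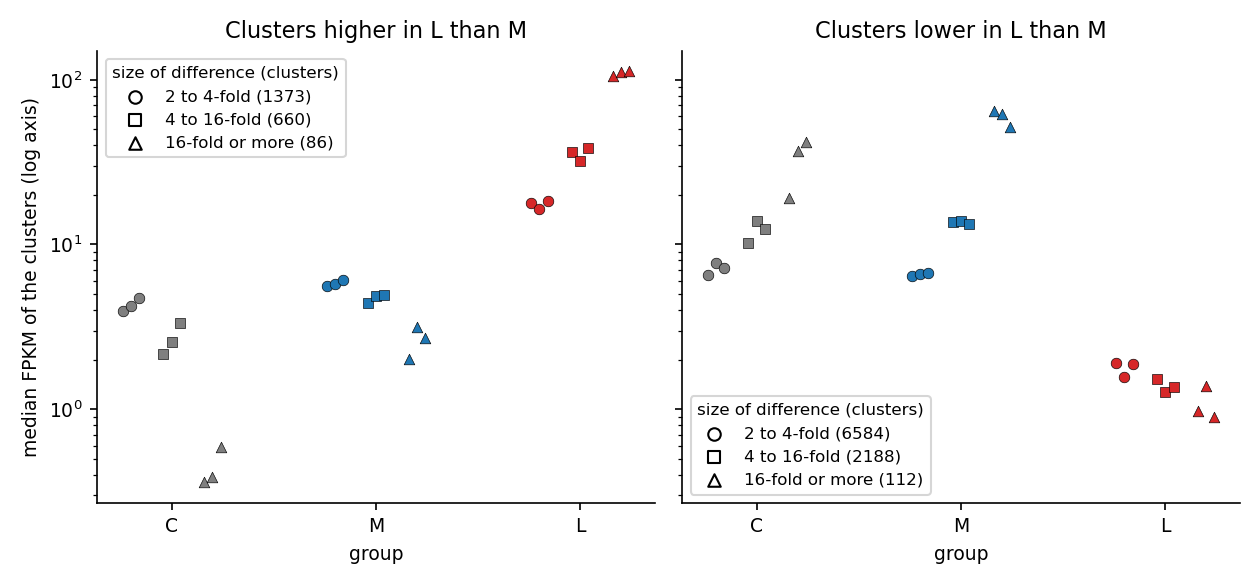
Points give the median FPKM (log axis) of the clusters called higher (left) or lower (right) in L than in M, for each of the 3 C, M and L libraries, with symbols for the size of the difference. Clusters with the largest rises stand at 0.36 to 0.59 FPKM in C, 2.01 to 3.17 in M and 105.8 to 112.6 in L.

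Few clusters were present in one group and listed at 0 throughout the other. With presence set at 5 FPKM or more in all 3 libraries, 6 clusters were present in L and listed at 0 in every M library, with a highest group mean of 40.6 FPKM. In reverse, 20 clusters were present in M and listed at 0 in every L library, with a highest group mean of 70.8 FPKM. Of the 6 clusters present in L, 5 were also listed at 0 in every C library, and of the 20 present in M, 2 were. An exact 0 can be a failed estimate, so these clusters are only said to be listed at 0. At 1 FPKM or more the numbers were 109 in L and 395 in M. Of these, 63 of the 109 and 144 of the 395 were listed at 0 in every C library, a smaller contrast than at 5 FPKM. The counts moved with single libraries, since fewer libraries then have to meet the rule. The 6 clusters present in L became 12, 23 and 18 without L replicates 1, 2 and 3 and 10 without M replicate 1. The 20 present in M became 39 without L replicate 2 and 33, 39 and 42 without M replicates 1, 2 and 3.

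The identifiers hold a parent number, and 1 of these, 17261, covered 44526 of the 63753 clusters. What a parent number stands for is not given in the sources used here. Clusters under this number made up 28153 of those tested, with 7.17% called higher and 30.2% lower in L. Clusters under other parent numbers were low, with a median of 1.26 FPKM over the 6 libraries against 6.22 FPKM, and 9.72% of them passed the filter against 63.2%. Of the 1868 tested, 5.35% were higher and 20.8% lower in L. The part of all FPKM under the large parent number was 99.1%, 99.1% and 98.6% in L and 98.4%, 98.5% and 98.5% in M (exact permutation test, two-sided, p = 0.1, adjusted 0.125). The other parent numbers seldom held more than 1 tested cluster. Of 1846 such numbers, 21 held at least 2, and in the only one with 2 or more calls these were all lower in L.

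Without gene names, the 4 clusters with the largest differences are given as examples, chosen by log2 difference and by difference in mean FPKM among called clusters whose L and M values did not overlap. Cluster-17261.4585 had the largest log2 rise. It stood at 11.4, 22.7 and 18.8 FPKM in M replicates 1 to 3 and at 3252, 2187 and 3495 FPKM in L, and it was listed at 0 in all 3 C libraries. All L values were far above all M values, and its rank among the clusters of a library went from between 5819 and 10463 in M to between 30 and 56 in L. The log2 difference, 7.34 ± 0.258 (SE), passed the test (limma, adjusted p = 5.61e-06).

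Cluster-17261.24332 had the largest rise in mean FPKM among the called clusters without overlap, from 756.7, 981.7 and 555.8 FPKM in M to 10302, 11814 and 10847 in L. In C it stood at 84.9, 83.5 and 146.7 FPKM, so that all 3 groups were apart. It was the third to the fifth most abundant cluster of the L libraries. The log2 difference of L from M was 3.88 ± 0.282 (SE; limma, adjusted p = 3.06e-05), and this cluster alone made up 3.82% of the summed increase of the clusters called higher.

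Cluster-17261.10575 had the largest log2 fall. It stood at 2969, 1188 and 4798 FPKM in M, was listed at 0 in L replicate 1 and stood at 6.87 and 1.39 FPKM in L replicates 2 and 3. Replicates of C went apart as far as the groups did: the cluster was at 3632 FPKM in C replicate 2 and listed at 0 in the other 2 C libraries. The log2 difference of L from M was -9.92 ± 2.75 (SE; limma, adjusted p = 0.0146). The standard error carries the spread within C. It was 0.815 with the L and M libraries alone (limma, adjusted p = 0.000318) and 0.754 without C replicate 2 (limma, adjusted p = 6.95e-05).

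Cluster-17261.20377 had the largest fall in mean FPKM among the called clusters without overlap. Its M values were 7826, 6767 and 3890 FPKM, its L values 2669, 2647 and 2256, and its C values 2314, 2614 and 5904. The L values were close together and below all M values, while the C values reached into both. The log2 difference was -1.23 ± 0.406 (SE; limma, adjusted p = 0.0308). This call was lost when any L library or M replicate 1 or 2 was left out, with adjusted p from 0.0675 to 0.106 in limma. After median scaling the difference was -0.38 (limma, adjusted p = 0.511), and after quantile normalization it was -1.88 (limma, adjusted p = 0.00803).

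**Figure D5:**
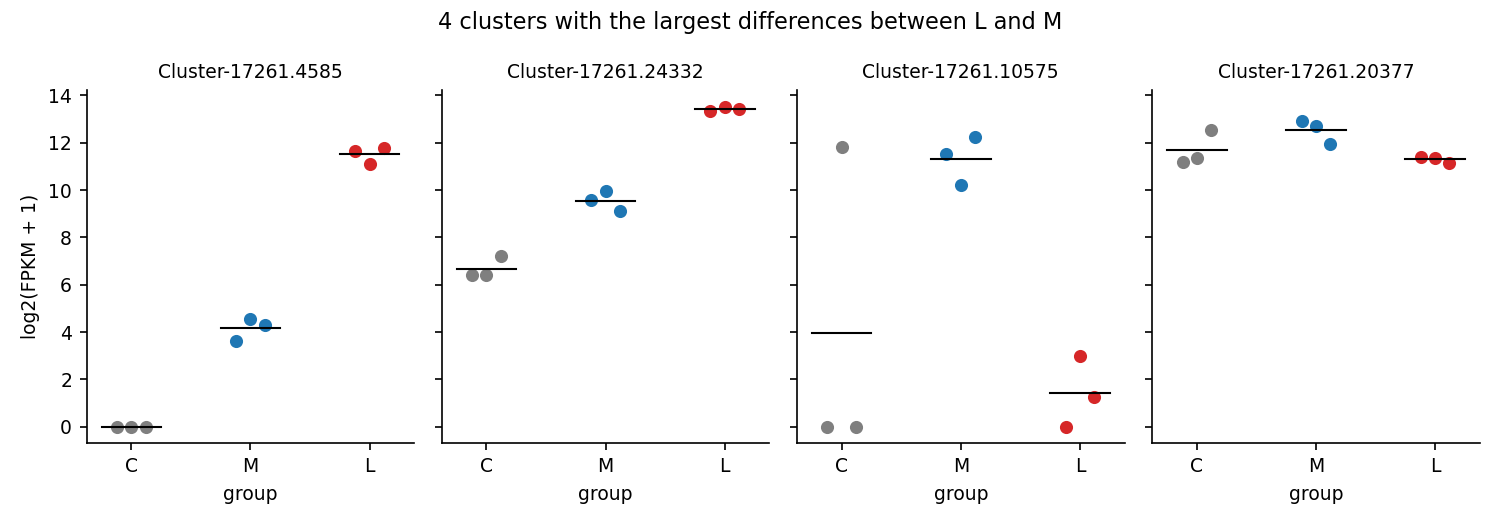
Each panel is 1 cluster, each point 1 library at log2(FPKM + 1), and each bar the mean of the 3 libraries of a group. Cluster-17261.4585 and Cluster-17261.24332 are higher in every L than in every M library, Cluster-17261.10575 is near the level of L in 2 C libraries and near that of M in C replicate 2, and Cluster-17261.20377 overlaps between C and M.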

How the data were processed

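The FPKM values were calculated and deposited by the authors, per the file headers, and are rounded to 2 decimals. How reads were assembled, aligned and counted is not given in the sources used here. Label fields for extraction and genome describe an animal and were not used. FPKM are not counts, so no count model was run. Values were transformed to log2(FPKM + 1), and limma 3.58.1 (R 4.3.3) was run on the 9 libraries, with group as the only term and a trended prior. Residual degrees of freedom were 6 and prior ones 2.83. Benjamini-Hochberg adjustment ran over the 30021 tested clusters. The script was tested on simulated data with planted changes and no general shift between L and M. No change was planted in clusters with low values, so that test does not bear on scaling or on finding changes in low clusters. Between 3 and 3 libraries the smallest exact permutation p is 0.1. No 2 libraries held identical values (0 pairs). The cluster rule, the comparisons and the 4 named clusters' rule were chosen with earlier results of these data known. The naming rule took the largest rise and fall, by log2 and by mean FPKM, among called clusters without overlap between L and M whose higher group mean was in the upper 50%. No counting interval can be given for FPKM without fragment counts.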

Additional observations from a re-analysis of the deposited data

How the results depend on the processing

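Across all alternatives run, no cluster called both as reported and under the alternative changed direction (0 opposite calls in each). The 2119 rises and 8884 falls became 1323 and 3485 (together 4808) with a pseudocount of 5, and 4069 and 4159 with quantile normalization, and 4929 and 4008 with median scaling. With a filter of 5 FPKM in 3 of 6 libraries 6884 clusters were called and 5302 fell, of fewer tested. The median difference of -0.58 became -0.771 with a pseudocount of 0.1, -0.301 with 5, -0.34 without a filter, -0.033 with quantile normalization and 0.062 with median scaling. Among clusters of at least 100 FPKM in L or M, 434 rose and 342 fell as deposited, and 702 and 158 after median scaling. Leaving out 1 library gave 10228 to 11351 calls, 408 to 436 abundant rises, 307 to 355 abundant falls and medians from -0.627 to -0.529. It gave 7.46 to 9.54 percentage points for the 100 and 9.28 to 11.4 for the 1000 most abundant clusters. Clusters present in L but listed at 0 in M numbered 6, and 7 to 23 without 1 library, and 109 at 1 FPKM. In reverse they numbered 20, and 27 to 42, 395 at 1 FPKM and 6 at 10 FPKM. Fewer libraries have to meet the rule when 1 is left out. Cluster-17261.20377 lost its call without a filter (limma, adjusted p = 0.0555). Fitting the L and M libraries alone, scaling to the same FPKM sum, leaving out the trend and a filter of 1 FPKM in 3 of 9 libraries kept each of the counts of calls within 1.5 times. The cause of the other changes was not tested.

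Deviations from the group mean in same-numbered L and M replicates had correlations of -0.0639, 0.0357 and -0.0625 across clusters. Replicates with different numbers had correlations from -0.0428 to 0.0948. With 3 replicates per group these values cannot decide whether the numbers pair the samples. With the replicate block 2113 clusters rose and 8773 fell, 10886 in all, and Cluster-17261.20377 was not called (limma, adjusted p = 0.0639). Without fragment counts, depth limits the low clusters to an unknown degree.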
